A study of Mus musculus with 12 samples.

Results

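The Wnt pathway was read at the level of mRNA in whole kidneys of 12 mice through 57 genes that encode its ligands, receptors, secreted antagonists and core signalling parts. These genes were taken by name from the count table of 54532 genes. They comprise 19 Wnt ligands, 12 Frizzled and Lrp receptors, 10 Sfrp, Dkk and Wif1 antagonists, 9 R-spondins, Lgr receptors and membrane ligases, and 7 Axin, Ctnnb1 and Tcf/Lef genes. Of the 57, 51 passed the filter on low counts and were tested, as did 24642 genes in all. The 6 others, Dkk4, Rspo2, Wnt1, Wnt3, Wnt3a and Wnt8a, held between 1 and 8 reads summed over the 12 mice.

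The mice were labelled C57BL/6 (on a C57BL/6 J background by the methods of the study), were 18 days old and fell into 4 groups of 3 whole kidney samples. All of them, controls included, carried 1 copy of RC, a hypomorphic Pkd1 allele. Noncystic Pkd1 RC/+ mice kept a floxed second Pkd1 allele, which is why they are also written Pkd1 RC/F. In cystic Pkd1 RC/- mice the KspCre transgene, which is driven in renal tubule epithelium and not in the stroma, vessels or immune cells of the kidney, removed that floxed allele. Either genotype came with Pkd2+/+ or with Pkd2 Δ17/Δ17, a homozygous CRISPR deletion of the miR-17 binding motif in the 3′-UTR of Pkd2. No Cre-bearing mouse without a Pkd1 mutation was among the groups, so Cre and Pkd1 loss cannot be told apart here.

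Wnt ligands are secreted glycoproteins that bind Frizzled receptors together with the co-receptors Lrp5 and Lrp6. In the canonical branch this stops Axin-containing complexes from degrading β-catenin (Ctnnb1), which then acts with Tcf/Lef factors on target genes such as Axin2. In the kidney, Wnt9b and Wnt7b come from the ureteric bud and collecting duct, Wnt4 drives nephron formation, and Wnt5a and Wnt11 are best known for β-catenin-independent signalling and ureteric branching.

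The element that the Pkd2 Δ17/Δ17 mice lack pairs with the seed of miR-17, so the microRNA, the Pkd2 site and the like sites among the Wnt genes are shown, with the seed (bases 2 to 8 of the microRNA) and the matching 8-mer in capitals. The mature microRNA is from RefSeq, and the sites are DNA of the reference (unedited) GRCm38 genome, on the strand of the gene, in the longest 3′-UTR that GENCODE M21 annotates.
mmu-miR-17-5p: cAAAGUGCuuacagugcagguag
Pkd2, chr5:104503821-104503828, forward strand: aattttctGCACTTTAatttattt
Fzd3, chr14:65192537-65192544, reverse strand: ttttcttaGCACTTTAactgtgag
Sfrp4, chr13:19631537-19631544, forward strand: tgttctggGCACTTTAgtgggtca
Wnt9b, chr11:103730261-103730268, reverse strand: caagggaaGCACTTTAggcttggg
The 8-mer GCACTTTA, searched on the sense strand only, was present in the 3′-UTR of 3 of 57 Wnt genes (5.26%) and of 743 of 21148 annotated genes (3.51%). The Pkd2 site starts at nucleotide 133 after the stop codon, that of Fzd3 at 10175, that of Sfrp4 at 1165 and that of Wnt9b at 482. Fzd3 encodes a Frizzled receptor of the planar cell polarity branch, Sfrp4 a secreted Wnt-binding antagonist and Wnt9b a ligand. Their values under the deletion are given with the other noncystic and cystic comparisons.

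Total counts ran from 18800307 to 24453033 per mouse. Levels are given as CPM, read counts relative to library size after TMM scaling for library composition, with the 3 mice of a group in the order of their numbers, and a gene is said to be called where edgeR gave it an adjusted p under 0.05 over all genes tested. SE stands for the standard error of such a fold change on the log2 scale. It was derived as the size of the log2 fold change divided by the square root of edgeR's F statistic. Pkd2 rose with the motif deletion in cystic kidneys by a log2 fold change of 0.53 (SE 0.08, edgeR adjusted p = 0.00249). In noncystic kidneys it stood 0.40 higher on that scale (SE 0.08), without overlap. Its unadjusted p in edgeR's test was 8.21e-05 there, but it was not called (edgeR adjusted p = 0.771). Proximal tubule markers summed to between 2053 and 7659 CPM in every mouse. Adrenal gland markers (Cyp11a1, Cyp11b1, Cyp21a1, Star and Hsd3b1) summed to between 3.89 and 7.15 CPM in 10 mice, but to 61.9 CPM in cystic Pkd2+/+ mouse 27 and 433 CPM in cystic Pkd2 Δ17/Δ17 mouse 30. The counts of called Wnt genes in comparisons with cystic kidneys are therefore also given without these mice, a setting chosen after the data were seen. In bulk kidney RNA, fewer cells of a type and less RNA per cell cannot be told apart.

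The 57 genes together took 0.213 to 0.225% of all raw counts in the noncystic kidneys and 0.276 to 0.314% in the cystic kidneys, with no overlap. These shares are not TMM-scaled, and the TMM factors were 0.933 to 0.972 in noncystic and 1.04 to 1.08 in cystic kidneys. A rise of the sum need not be shared by every gene. To compare genes with each other, CPM was divided by the merged exon length and is given as mean ± SD over the 3 mice of a group. In noncystic Pkd2+/+ kidneys Ctnnb1 stood first at 93.8 ± 2.77 CPM per kb, then the antagonist Sfrp1 at 73.1 ± 3.37. Receptors came next: Fzd4, a receptor best known in vessels, at 33.3 ± 1.43 CPM per kb, Lgr4, a receptor for R-spondins, at 32.3 ± 1.23 and Fzd1 at 29.5 ± 0.347. The means of Fzd4 and Lgr4 lay within their SDs of each other.

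Among the ligands, Wnt5a at 8.21 ± 1.0001 CPM per kb and Wnt7b at 7.78 ± 2.37 led in noncystic Pkd2+/+ kidneys and did not differ beyond their spread. Wnt4 at 6.30 ± 2.49 and Wnt5b at 6.19 ± 0.413 followed, again within the SD of Wnt4. In cystic Pkd2+/+ kidneys Wnt7b stood first among the ligands at 18.4 ± 3.97 CPM per kb, above Wnt4 at 7.25 ± 2.73 by more than either SD. Fzd1 reached 87.8 ± 1.69 CPM per kb there, next to Sfrp1 at 88.1 ± 7.49, and these 2 did not differ beyond the SD of Sfrp1. At the low end of the genes tested lay Rspo4 at 0.00802 ± 0.0139 and Wnt10b at 0.0579 ± 0.0502 CPM per kb in noncystic Pkd2+/+ kidneys.

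**Figure D1:**
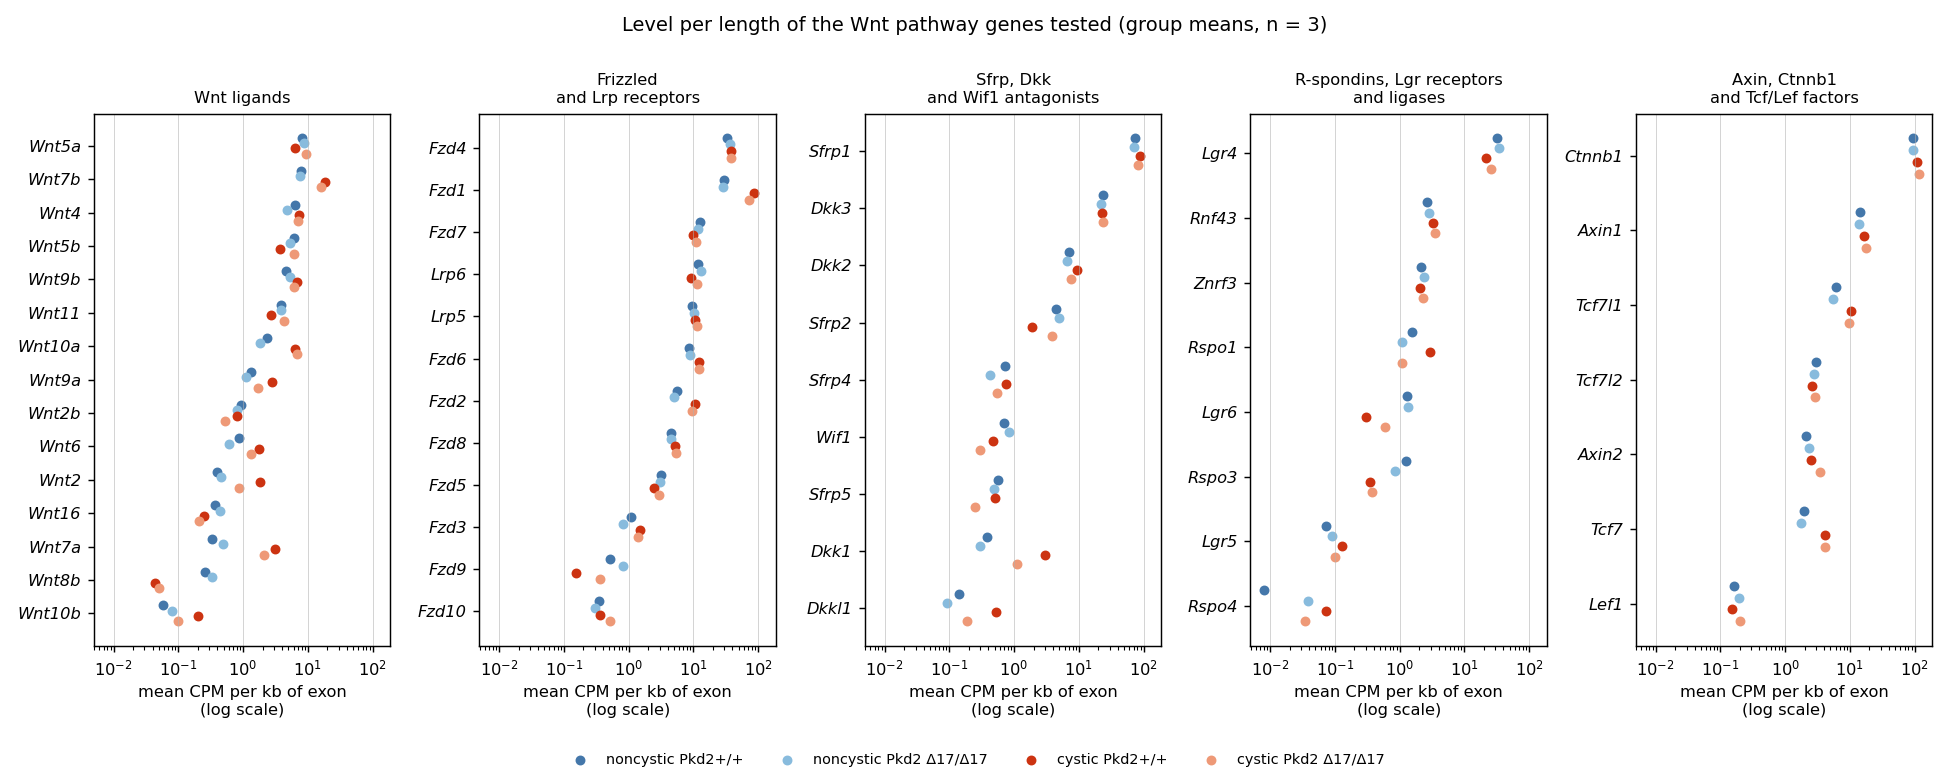
Mean CPM per kb of merged exons (log axis) for the 51 Wnt pathway genes tested, by role, with 1 point for each of the 4 groups (n = 3 mice a group). Fzd1 and Wnt7b move to the right in both cystic groups, while Lgr4 and Lgr6 move to the left.

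The first comparison asked how the Wnt genes of cystic kidneys differ from those of noncystic kidneys when Pkd2 is intact. Of the 51 genes tested, 27 (52.9%) were called, 17 higher and 10 lower, where 31.1% of all genes tested were called (16.9% higher and 14.2% lower). The groups were free of overlap for 33 of the 51, where this held for 41.7% of all genes tested, and 34 had an unadjusted p under 0.05, where 39.3% of all genes did. The median log2 fold change was 0.22 over the 51 genes and 0.02 over all genes tested. Scaling by library totals alone moved the median of all genes to 0.18 and the split to 23 higher and 8 lower, with 35.4% of all genes called. Without mice 27 and 30, 25 were called, 16 higher and 9 lower, where 26.6% of all genes were.

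Rises and falls were spread over the roles. Among Wnt ligands 8 of 15 tested were called (6 higher and 2 lower), among Frizzled and Lrp receptors 9 of 12 (5 and 4), and among the antagonists 4 of 9 (3 and 1). For R-spondins, Lgr receptors and ligases it was 4 of 8 (1 higher and 3 lower), and for the Axin, Ctnnb1 and Tcf/Lef group 2 of 7, both higher. Without mice 27 and 30 these counts were 6 higher and 2 lower for the ligands, 5 and 3 for the receptors, 2 and 1 for the antagonists, 0 and 3 for the R-spondin group and 3 and 0 for the Axin, Ctnnb1 and Tcf/Lef group. Of the 27, 20 were called under each of the 15 alternative settings. Dkkl1, Fzd4, Fzd5, Fzd7, Fzd9, Rnf43 and Sfrp1 lost the call in 1 or more.

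**Figure D2:**
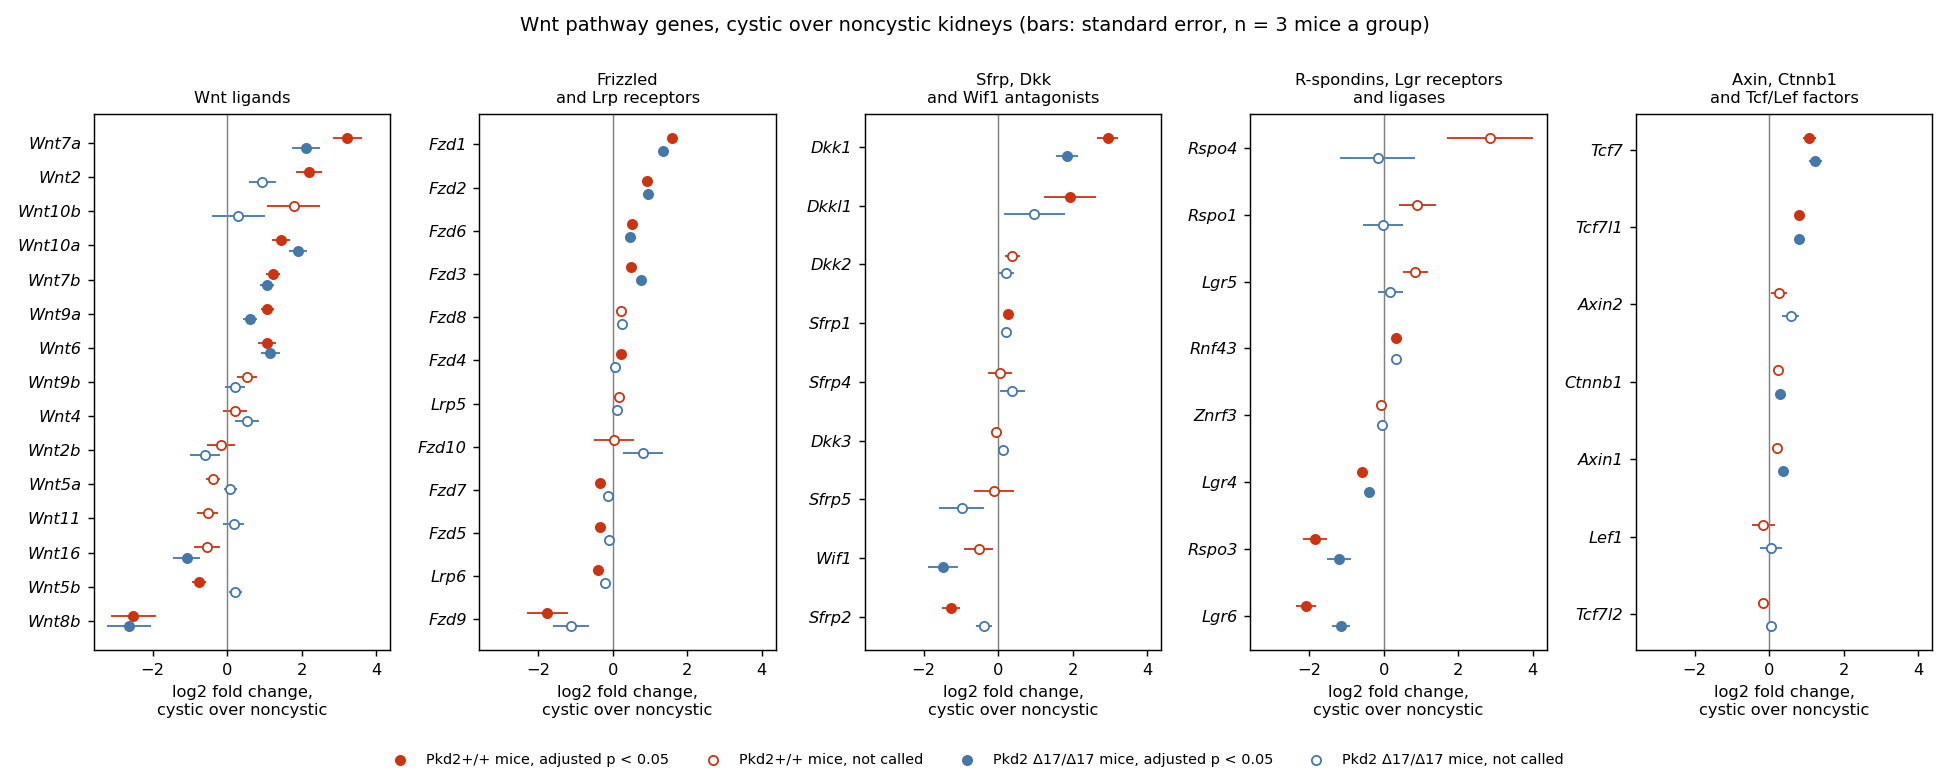
Log2 fold change of cystic over noncystic kidneys (x axis) for each Wnt pathway gene tested, by role, in Pkd2+/+ mice (red) and in Pkd2 Δ17/Δ17 mice (blue), which share no mice. Bars are standard errors and filled points have an adjusted p under 0.05: 27 genes in Pkd2+/+ mice and 20 in Pkd2 Δ17/Δ17 mice.

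Wnt7a, a ligand active in the female reproductive tract and limb, showed the steepest rise of any gene of the set. It read 0.831, 1.31 and 1.02 CPM in noncystic and 8.01, 11.5 and 10.03 CPM in cystic Pkd2+/+ kidneys. The cystic mice all stood above the noncystic ones, a log2 fold change of 3.22 (SE 0.39, edgeR adjusted p = 7.90e-06). Wnt2, a ligand of lung mesenchyme and vessels, went from 1.04, 0.684 and 0.967 CPM to 3.68, 5.19 and 3.58 CPM. These groups were also apart, by 2.19 (SE 0.35, edgeR adjusted p = 0.000119) on the log2 scale. Wnt10a also rose without overlap, from 6.75, 5.76 and 4.78 CPM to 12.2, 21.3 and 13.7 CPM, by 1.45 (SE 0.24, edgeR adjusted p = 0.000200) on the log2 scale.

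Wnt7b, the collecting duct ligand needed for the renal medulla, was more abundant per kb than these. Its noncystic levels were 34.4, 51.2 and 28.8 CPM and its cystic levels 72.1, 111 and 87.01 CPM, so that the groups stood apart. That was a log2 fold change of 1.24 (SE 0.19, edgeR adjusted p = 6.61e-05), although the gene overlaps AU022754 and the strand of the counting is not given in the sources used here. Wnt9a, a ligand of joint formation, stood at 4.41, 4.62 and 3.97 CPM in noncystic and 7.74, 10.4 and 9.32 CPM in cystic Pkd2+/+ kidneys. No cystic mouse reached down to the noncystic range, and the log2 fold change was 1.08 (SE 0.18, edgeR adjusted p = 0.000181). Wnt6 was the sixth ligand to rise, by 1.07 (SE 0.25, edgeR adjusted p = 0.00321).

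Collecting duct markers were also higher, with 3 of 6 called higher and 0 lower. Their sum was 984 to 1112 CPM in noncystic and 2706, 1383 and 1216 CPM in cystic Pkd2+/+ kidneys. Mouse 25, with the highest sum, had the lowest cystic level of Wnt7a, Wnt7b, Wnt10a, Wnt9a and Wnt6, though not of Wnt2. Urothelium markers spread over 46.7 to 141 CPM in noncystic and 10.2 to 112 CPM in cystic Pkd2+/+ kidneys, with 0 of 5 called. The part of cell composition in the ligand levels was not tested.

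The falling ligands were Wnt5b and Wnt8b. Wnt5b, a relative of Wnt5a in β-catenin-independent signalling, read 15.3, 16.5 and 17.4 CPM in noncystic and 8.67, 11.7 and 9.04 CPM in cystic Pkd2+/+ kidneys. Each cystic value lay below each noncystic one, with a log2 fold change of -0.75 (SE 0.18, edgeR adjusted p = 0.00464). Wnt8b was scarce, at 1.56, 0.798 and 0.305 CPM in noncystic and 0.0774, 0.147 and 0.235 CPM in cystic kidneys. Those cystic values rest on 2 to 5 reads a mouse, so that the log2 fold change of -2.52 (SE 0.60, edgeR adjusted p = 0.00376) depends on few reads. The nephron-forming ligands were not called: Wnt4 had a log2 fold change of 0.20 (SE 0.32, edgeR adjusted p = 0.691) and Wnt9b of 0.54 (SE 0.27, edgeR adjusted p = 0.151). Wnt5a and Wnt11, with -0.39 and -0.53, were not called either.

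Of the receptors, Fzd1 had the smallest adjusted p. It stood at 122, 123 and 125 CPM in noncystic and 363, 377 and 366 CPM in cystic Pkd2+/+ kidneys. Within each group the mice lay close together, and the groups were apart by a log2 fold change of 1.58 (SE 0.10, edgeR adjusted p = 2.05e-08). Fzd2, which like Fzd1 belongs to the subfamily with Fzd7, went from 18.8, 21.2 and 20.6 to 33.3, 47.1 and 34.9 CPM. On the log2 scale this was 0.93 (SE 0.13, edgeR adjusted p = 4.05e-05). Fzd6, a receptor of planar cell polarity, rose less, from 38.4, 46.6 and 38.5 to 58.7, 63.2 and 54.1 CPM, a log2 fold change of 0.51 (SE 0.09, edgeR adjusted p = 0.000343). Neither gene overlapped between the groups, though Fzd6 shares exon sequence with Gm26704. Fzd3 (0.48) and Fzd4 (0.22) also rose on this log2 scale.

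The third gene of that subfamily, Fzd7, went the other way. It stood at 55.9, 51.3 and 62.1 CPM in noncystic and 46.6, 40.3 and 47.4 CPM in cystic Pkd2+/+ kidneys, which was -0.33 (SE 0.11, edgeR adjusted p = 0.0296) on the log2 scale. This call was lost with library totals as the scaling, with Xist as a covariate and without mouse 19, 21 or 26. Lrp6, the co-receptor phosphorylated when Wnt binds, read 163, 154 and 172 CPM in noncystic and 119, 136 and 120.3 CPM in cystic kidneys. The groups did not overlap, and the log2 fold change was -0.38 (SE 0.08, edgeR adjusted p = 0.00122). The related co-receptor Lrp5 was not called (0.16, edgeR adjusted p = 0.276). Fzd9 was low throughout, at 0.727, 1.71 and 1.12 CPM in noncystic and 0.194, 0.343 and 0.518 CPM in cystic kidneys. Its log2 fold change of -1.75 (SE 0.55, edgeR adjusted p = 0.0208) lost the call without mouse 20, 25 or 26. Fzd5, with -0.35, was the remaining receptor to fall.

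Among the antagonists Dkk1, which binds Lrp5 and Lrp6 and blocks canonical signalling, changed most. It read 0.883, 0.570 and 1.32 CPM in noncystic and 6.50, 6.71 and 8.33 CPM in cystic Pkd2+/+ kidneys. Its lowest cystic value was several times its highest noncystic one, and the log2 fold change was 2.94 (SE 0.28, edgeR adjusted p = 7.01e-07). Sfrp1, the abundant Wnt-binding antagonist, stood at 329.7, 303 and 327 and 365, 423 and 367 CPM. The shift was small but without overlap, with a log2 fold change of 0.27 (SE 0.09, edgeR adjusted p = 0.0278). Its call was lost in 6 of 15 alternative settings: with the scaling of DESeq2, with Xist as a covariate, on the compared groups only and without mouse 20, 21 or 26. Dkkl1, a Dkk3-like gene best known in testis, went from 0.156, 0.456 and 0.0509 to 0.929, 0.685 and 0.895 CPM. Its noncystic values rest on 1 to 8 reads a mouse. The log2 fold change of 1.93 (SE 0.70, edgeR adjusted p = 0.0460) lost its call with Xist as a covariate and without mouse 19, 21, 25, 26 or 27.

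Sfrp2, by contrast with Sfrp1, fell. It read 9.76, 10.9 and 8.14 CPM in noncystic and 3.48, 3.92 and 4.61 CPM in cystic Pkd2+/+ kidneys. No mouse of one group reached the range of the other, and the log2 fold change was -1.26 (SE 0.23, edgeR adjusted p = 0.000462). Part of its exons overlap Gm26771. Dkk2, Dkk3, Sfrp4, Sfrp5 and Wif1 were not called, with log2 fold changes between -0.53 and 0.38. Fibroblast and matrix markers summed to 1992 to 2159 CPM in noncystic and 2985 to 4434 CPM in cystic Pkd2+/+ kidneys, with 4 of 8 called higher and 2 lower. Their part in these values was not tested.

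R-spondins amplify Wnt signalling by binding Lgr receptors and clearing the ligases Znrf3 and Rnf43, which otherwise remove Frizzled from the membrane. Lgr6 read 6.91, 12.4 and 7.22 CPM in noncystic and 2.13, 2.15 and 1.93 CPM in cystic Pkd2+/+ kidneys. The cystic mice were tightly grouped far below the others, with a log2 fold change of -2.09 (SE 0.26, edgeR adjusted p = 8.98e-06). Rspo3, a secreted activator, stood at 2.60, 5.82 and 3.15 CPM and 0.852, 1.42 and 0.942 CPM. It fell without overlap by a log2 fold change of -1.85 (SE 0.32, edgeR adjusted p = 0.000251), with Gm48159 overlapping its exons. Lgr4, the most abundant of the 3 Lgr genes per kb, went from 198, 188 and 184 to 139.8, 112 and 129.8 CPM. That was -0.58 (SE 0.08, edgeR adjusted p = 3.03e-05) in log2 fold change. The 3 called falls of this group were in a ligand or receptor of the R-spondin arm, and the 1 called rise was in a ligase.

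That ligase, Rnf43, read 16.3, 20.5 and 14.7 CPM in noncystic and 21.9, 22.1 and 20.8 CPM in cystic Pkd2+/+ kidneys. The log2 fold change of 0.34 (SE 0.12, edgeR adjusted p = 0.0475) lost its call in 9 of 15 alternative settings. Among them were DESeq2, edgeR on the compared groups only and edgeR without mouse 19, 21, 25, 26 or 27. Znrf3 stood at 16.3, 16.6 and 17.9 and 15.8, 16.3 and 16.4 CPM, which overlapped. Its log2 fold change of -0.07 (SE 0.10, edgeR adjusted p = 0.688) turned to 0.09 with library totals as the scaling. Lgr5, a stem cell receptor and canonical target, read 0.883, 0.513 and 0.814 CPM in noncystic and 1.32, 1.42 and 1.27 CPM in cystic kidneys, on 9 to 34 reads a mouse. Its groups did not overlap, yet the log2 fold change of 0.85 (SE 0.34, edgeR adjusted p = 0.0705) was not called. Rspo1 varied most among the cystic mice, at 9.37, 1.03 and 6.50 CPM, against 2.08, 4.39 and 2.70 CPM in noncystic Pkd2+/+ kidneys.

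Most cell marker lists moved in this comparison beside the receptors and R-spondin genes. Called lower were 6 of 6 proximal tubule markers (median log2 fold change -1.21), 4 of 4 of the distal convoluted tubule (-1.75), 4 of 5 of podocytes, with 1 higher (-1.17), and 3 of 5 of endothelium (-0.59). Called higher were 6 of 6 macrophage markers (1.82) and 3 of 4 of smooth muscle (1.57). The thick ascending limb had 1 of 4 called higher and 2 lower, and the nephron progenitor list 2 of 4 lower. The part of these shifts in the Wnt gene values was not tested.

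Feedback genes that canonical signalling is known to raise were looked at one by one. Axin2, the most used of them, read 10.3, 15.8 and 8.09 CPM in noncystic and 10.96, 17.2 and 12.6 CPM in cystic Pkd2+/+ kidneys. These ranges overlapped and the log2 fold change was 0.25 (SE 0.22, edgeR adjusted p = 0.430). Lef1 stood at 1.66, 1.25 and 1.42 and 0.813, 1.47 and 1.65 CPM, again with overlap. Its log2 fold change was -0.16 (SE 0.31, edgeR adjusted p = 0.761) and turned to 0.10 without mouse 25. The exons of both genes overlap another gene, Gm11670 for Axin2 and Gm43352 for Lef1. Across 15 alternative settings, which kept Axin2 uncalled in this comparison, its log2 fold change ran from 0.04 to 0.54.

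Tcf7 behaved unlike these 2. It read 5.40, 5.08 and 4.93 CPM in noncystic and 8.21, 12.9 and 11.4 CPM in cystic Pkd2+/+ kidneys. All cystic mice were higher, by a log2 fold change of 1.08 (SE 0.18, edgeR adjusted p = 0.000152). Tcf7 is also a T cell gene. The lymphocyte markers summed to 6.79 to 9.87 CPM in noncystic and 4.76 to 6.85 CPM in cystic Pkd2+/+ kidneys, with 2 of 6 called higher and 1 lower, and their part in the Tcf7 level was not tested. Tcf7l1, a factor that mainly represses targets, rose from 22.8, 21.6 and 26.3 to 35.7, 42.4 and 44.2 CPM. The groups were apart, with a log2 fold change of 0.79 (SE 0.10, edgeR adjusted p = 1.26e-05), and its exons overlap Gm15401. Ctnnb1 itself stood at 471, 491 and 499 CPM and 548, 652 and 509.9 CPM. It did not overlap and was not called, with a log2 fold change of 0.23 (SE 0.09, edgeR adjusted p = 0.0812), while library totals as the scaling gave 0.39 and a call (edgeR adjusted p = 0.00248). Axin1 (0.20) and Tcf7l2 (-0.17) were not called.

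**Figure D3:**
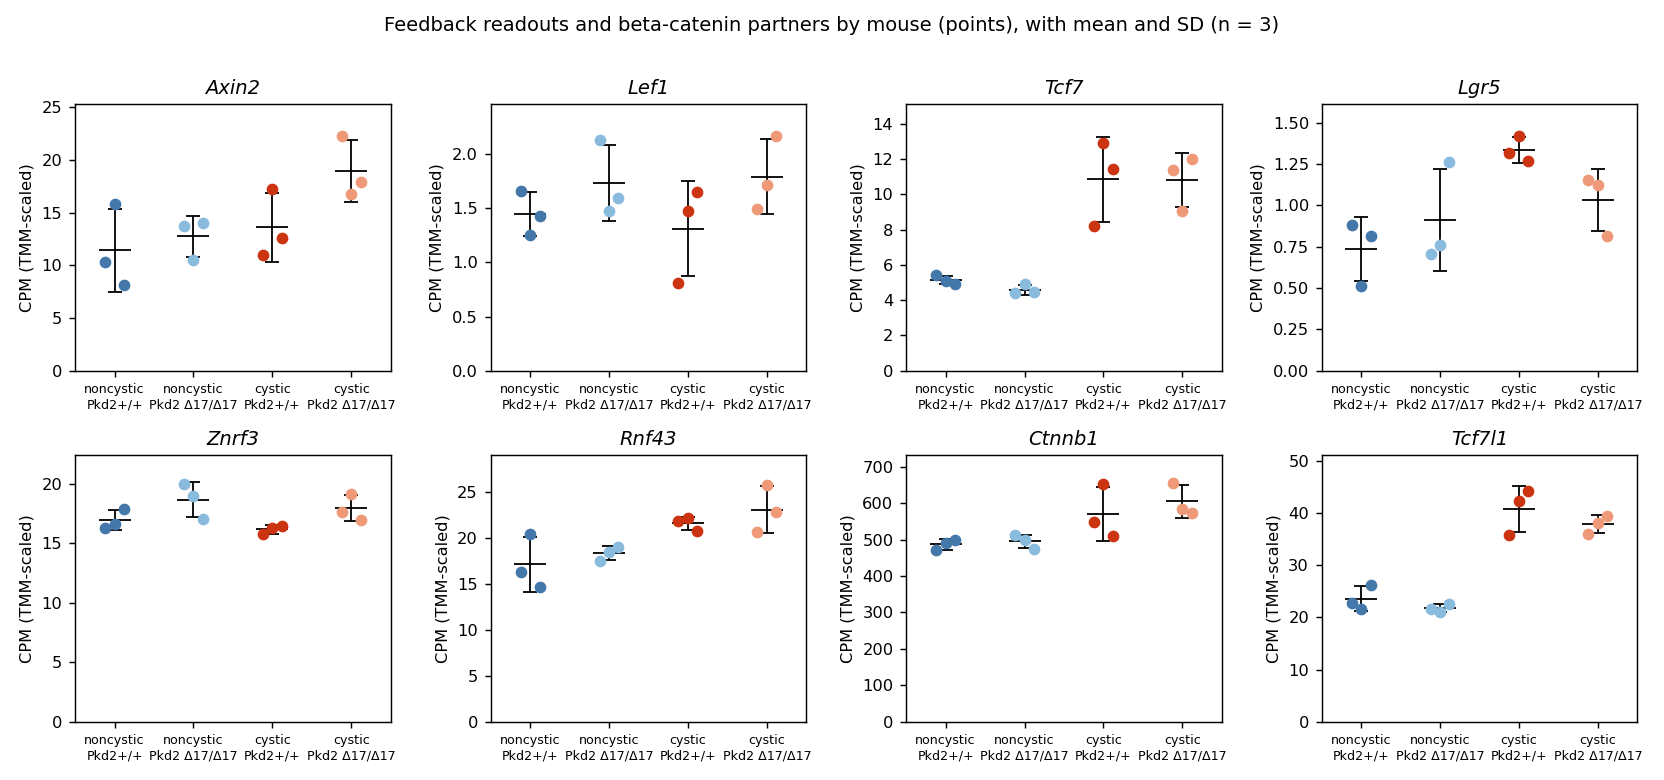
CPM (y axis, from 0) of the feedback genes and β-catenin partners in each mouse (points), with the mean and SD of each group (n = 3). Axin2 and Lef1 overlap between noncystic and cystic Pkd2+/+ mice, while Tcf7 and Tcf7l1 stand higher in all 6 cystic mice.

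The same question was put to the mice without the Pkd2 motif, which share no animal with the comparison above. Between cystic and noncystic Pkd2 Δ17/Δ17 kidneys 20 of 51 genes (39.2%) were called, 14 higher and 6 lower, where 23% of all genes tested were called (12.8% higher and 10.2% lower). Without mice 27 and 30, 18 were called, where 16.9% of all genes were. In both comparisons 16 genes were called in the same direction, 12 higher and 4 lower, which was 59.3% of the 27 and 80% of the 20. No gene was called in opposite directions. Over all genes tested those shares were 63.0% and 85.0%. Of the 27 genes called in Pkd2+/+ mice, 26 had the same sign in Pkd2 Δ17/Δ17 mice, the exception being Wnt5b. That was 96.3%, where 96.96% of all genes called in Pkd2+/+ mice had the same sign. For these 27 the median size of the log2 fold change was 1.08 in Pkd2+/+ and 0.94 in Pkd2 Δ17/Δ17 mice. The 27 were picked by their call in Pkd2+/+ mice, which favours larger values there. These medians therefore cannot show an effect of the deletion.

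By role, 7 of 15 ligands, 4 of 12 receptors, 2 of 9 antagonists, 3 of 8 of the R-spondin group and 4 of 7 of the Axin, Ctnnb1 and Tcf/Lef group were called (6, 4, 2, 2 and 4 without mice 27 and 30). Wnt7a had a log2 fold change of 2.12 (SE 0.38, edgeR adjusted p = 0.000503) here, Wnt10a of 1.90 (SE 0.25, edgeR adjusted p = 3.71e-05) and Wnt7b of 1.05 (SE 0.19, edgeR adjusted p = 0.000497). Within the cystic Pkd2 Δ17/Δ17 mice Wnt7a read 4.47, 3.96 and 11.6 CPM, and the high value was that of mouse 30, the mouse with the highest adrenal marker sum. Fzd1 rose by 1.33 (SE 0.10, edgeR adjusted p = 2.53e-07) on the log2 scale and Tcf7 by 1.23 (SE 0.18, edgeR adjusted p = 8.46e-05). Lgr6 fell with -1.14 (SE 0.24, edgeR adjusted p = 0.00230) and Rspo3 with -1.21 (SE 0.32, edgeR adjusted p = 0.0112). The call of Rspo3 was lost without mice 27 and 30.

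Called here and not in Pkd2+/+ mice were Axin1, Ctnnb1, Wif1 and Wnt16. Axin1 read 53.1, 50.9 and 55.2 CPM in noncystic and 71.7, 66.95 and 66.7 CPM in cystic Pkd2 Δ17/Δ17 kidneys, with 0.37 (SE 0.08, edgeR adjusted p = 0.00208) on the log2 scale. Ctnnb1 had 0.29 (SE 0.09, edgeR adjusted p = 0.0353), and lost the call with the scaling of DESeq2 and without mouse 22, 23, 24, 28 or 29. Axin2 was not called in edgeR's test, with 0.57 (SE 0.22, edgeR adjusted p = 0.0709) on the log2 scale. It read 13.7, 10.5 and 14.03 CPM in noncystic and 22.2, 16.7 and 17.8 CPM in cystic Pkd2 Δ17/Δ17 kidneys, without overlap. Of the 15 alternative settings, 5 called it, among them limma-trend and DESeq2. Wif1, a secreted Wnt-binding inhibitor, fell with a log2 fold change of -1.49 (SE 0.41, edgeR adjusted p = 0.0129). Wnt16, a ligand best known in bone, fell with -1.09 (SE 0.35, edgeR adjusted p = 0.0340). Without mouse 29 or mouse 30 neither of these falls was called, and without mouse 22 or 23 that of Wnt16 was not. Nor was the fall of Wnt16 called by edgeR with library totals as the scaling or on the compared groups only. None of these differences between the 2 comparisons passed a test of its own: the interaction was not called for any of the 51 genes in edgeR's test, 5 had an unadjusted p under 0.05, where 8.33% of all genes did, and 0.0122% of all genes were called (0.00812% higher and 0.00406% lower). DESeq2 called 1 gene for the interaction, Wnt5b. Without mice 27 and 30 edgeR called 0 for it, where 0.0812% of all genes were called.

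The main question of the deletion was how cystic kidneys differ once the Pkd2 motif is gone. Of 51 genes, 5 (9.80%) were called between cystic Pkd2 Δ17/Δ17 and cystic Pkd2+/+ kidneys, where 2.23% of all genes tested were (1.19% higher and 1.04% lower). Sfrp2, Wnt5b and Lrp6 were higher and Dkk1 and Wnt9a lower. This comparison shares the cystic Pkd2+/+ mice with the first one. The groups did not overlap for 15 genes, where this held for 19% of all genes tested, and 15 had an unadjusted p under 0.05, where 14.3% of all genes did. The count of 5 rests on single mice: it was 3 without mouse 25 (3.47% of all genes called), 6 without mouse 26 (1.62%), 0 without mouse 27 (0.528%), 1 without mouse 28 (0.515%), 1 without mouse 29 (0.479%) and 7 without mouse 30 (3.09%). Without mice 27 and 30 it was 2 (Sfrp2 and Wnt2), where 1.33% of all genes were called.

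Dkk1 had the smallest adjusted p of the 5. Cystic Pkd2+/+ kidneys read 6.50, 6.71 and 8.33 CPM and cystic Pkd2 Δ17/Δ17 kidneys 2.88, 2.45 and 2.60 CPM. Both noncystic groups lay below either, since noncystic Pkd2 Δ17/Δ17 kidneys had 0.490, 0.873 and 0.825 CPM. The log2 fold change for the deletion was -1.44 (SE 0.25, edgeR adjusted p = 0.00746), set beside 2.94 for cystic over noncystic Pkd2+/+ kidneys. It ran from -1.51 to -1.31 over the 15 alternatives, with adjusted p-values from 3.89e-06 to 0.0696, and was not called without mouse 27 or mouse 29. Cystic Pkd2 Δ17/Δ17 kidneys still exceeded noncystic ones of the same Pkd2 genotype, by 1.85 (SE 0.30, edgeR adjusted p = 0.000221).

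Wnt9a was the other gene to fall with the deletion. It read 7.74, 10.4 and 9.32 CPM in cystic Pkd2+/+ and 4.66, 5.38 and 6.83 CPM in cystic Pkd2 Δ17/Δ17 kidneys. Those groups did not overlap, nor did the latter overlap with the noncystic Pkd2 Δ17/Δ17 mice at 3.71, 3.60 and 3.80 CPM. Its log2 fold change of -0.70 (SE 0.18, edgeR adjusted p = 0.0494) lay just inside the threshold, and the adjusted p ran from 0.00832 to 0.237 over the alternatives. The call was lost in 8 of 15 alternative settings, among them limma-trend, the compared groups only and without mouse 26, 27, 28 or 29.

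Wnt5b showed the opposite course. Levels were 8.67, 11.7 and 9.04 CPM in cystic Pkd2+/+ and 19.9996, 14.2 and 15.2 CPM in cystic Pkd2 Δ17/Δ17 kidneys, against 15.7, 10.04 and 16.7 CPM in noncystic Pkd2 Δ17/Δ17 kidneys. The cystic groups did not overlap, whereas the cystic Pkd2 Δ17/Δ17 mice overlapped with both noncystic groups. The log2 fold change was 0.75 (SE 0.18, edgeR adjusted p = 0.0416), and the interaction was 0.97 with an unadjusted p of 0.00175 and an edgeR adjusted p of 0.266. In 7 of 15 alternative settings the deletion call was lost, with adjusted p-values up to 0.232. Among them were Xist as a covariate, the compared groups only and the fits without mouse 25, 27, 28 or 29.

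Sfrp2 read 3.48, 3.92 and 4.61 CPM in cystic Pkd2+/+ and 12.1, 5.77 and 6.59 CPM in cystic Pkd2 Δ17/Δ17 kidneys. The latter mice spread widely, mouse 28 standing above all noncystic mice and the other two below all noncystic Pkd2+/+ mice. Noncystic Pkd2 Δ17/Δ17 kidneys had 11.1, 10.4 and 10.3 CPM. Its log2 fold change was 1.03 (SE 0.23, edgeR adjusted p = 0.0311), and fell to 0.63 with an edgeR adjusted p of 0.172 without mouse 28. The call was also lost without mouse 25, 26 or 27 and on the compared groups only.

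Lrp6 was the only receptor called. It read 119, 136 and 120.3 CPM in cystic Pkd2+/+ and 158, 166 and 145 CPM in cystic Pkd2 Δ17/Δ17 kidneys. The groups were apart by a log2 fold change of 0.32 (SE 0.08, edgeR adjusted p = 0.0426). Noncystic kidneys read 163, 154 and 172 CPM with Pkd2+/+ and 176, 176 and 184 CPM with Pkd2 Δ17/Δ17. Over the alternatives the difference stayed between 0.28 and 0.39, with adjusted p-values from 0.00631 to 0.207. It was not called in 8 of the 15, among them Xist as a covariate, the compared groups only and without mouse 25, 27, 28 or 29.

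**Figure D4:**
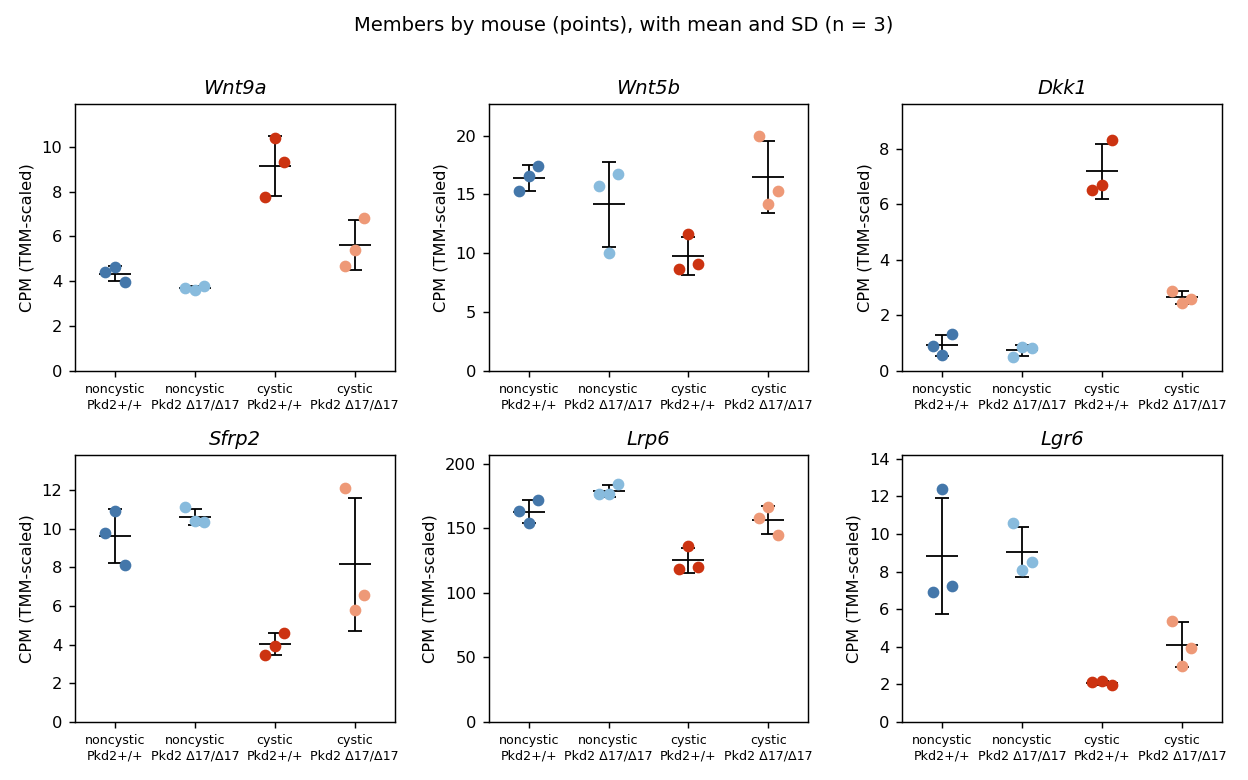
CPM (y axis, from 0) of the 5 Wnt pathway genes called between the cystic groups, and of Lgr6, in each mouse (points), with the mean and SD of each group (n = 3). Cystic Pkd2+/+ mice stand apart from cystic Pkd2 Δ17/Δ17 mice in every panel, by the widest log2 fold change for Dkk1.

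Other genes stood apart between the cystic groups at an unadjusted p under 0.05 without being called. Lgr6 read 5.38, 2.98 and 3.94 CPM in cystic Pkd2 Δ17/Δ17 kidneys, above all cystic Pkd2+/+ mice, with a log2 fold change of 0.98 (SE 0.26, edgeR adjusted p = 0.0617). Lgr4, at 156, 154 and 145 CPM, had 0.25 (SE 0.08, edgeR adjusted p = 0.126). For Wnt2 the cystic Pkd2 Δ17/Δ17 values were 1.44, 1.47 and 2.98 CPM, below those with Pkd2+/+, with -1.07 (SE 0.32, edgeR adjusted p = 0.103). Fzd1 at 312, 343 and 259.7 CPM had -0.27 (SE 0.10, edgeR adjusted p = 0.188). Dkkl1 at 0.192, 0.245 and 0.433 CPM and Fzd9 at 1.25, 0.587 and 0.673 CPM were the remaining pair, with -1.51 and 1.26 on few reads.

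The feedback genes were not called between the cystic groups. Axin2 read 22.2, 16.7 and 17.8 CPM in cystic Pkd2 Δ17/Δ17 kidneys, overlapping with cystic Pkd2+/+ mice, and had a log2 fold change of 0.48 (SE 0.21, edgeR adjusted p = 0.311). Lef1 at 1.49, 1.71 and 2.16 CPM had 0.46 (SE 0.30, edgeR adjusted p = 0.550), Tcf7 at 11.4, 9.05 and 11.98 CPM had -0.0037 (SE 0.17, edgeR adjusted p = 0.995), and Lgr5 at 1.15, 1.12 and 0.818 CPM had -0.37 (SE 0.33, edgeR adjusted p = 0.688). Znrf3 at 17.6, 19.1 and 16.98 CPM and Rnf43 at 20.6, 25.8 and 22.8 CPM gave 0.15 and 0.10. Ctnnb1 at 655, 584 and 574 CPM gave 0.08, with an edgeR adjusted p of 0.758. The abundant Wnt7b, at 79.1, 72.6 and 81.01 CPM, gave -0.21 (SE 0.18, edgeR adjusted p = 0.674).

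Cell markers moved between the cystic groups as well. Macrophage markers summed to 283 to 392 CPM in cystic Pkd2+/+ and 215 to 271 CPM in cystic Pkd2 Δ17/Δ17 kidneys, with 3 of 6 called lower. Proximal tubule markers summed to 2053 to 3122 CPM and 2814 to 4052 CPM, with 3 of 6 called higher and overlapping sums. Thick ascending limb markers did not overlap, with sums of 1630 to 2325 CPM and 3168 to 3256 CPM, and 1 of 4 was called higher. Of the endothelium markers 1 of 5 was called higher, and their sums overlapped. Without mice 27 and 30 the called markers were 2 of macrophages, lower, and 1 each of proximal tubule, thick ascending limb and endothelium, higher. No gene of the collecting duct, fibroblast, smooth muscle or urothelium lists was called in this comparison. The part of these shifts in the 5 called genes was not tested.

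In noncystic kidneys the deletion gave 0 called Wnt genes in edgeR's test, where 1 gene in all (0.00406%) was called. At an unadjusted p under 0.05 there were 2 of 51, where 6.31% of all genes passed, and DESeq2 called 0 of the 51. The groups did not overlap for 6 of 51 genes, where this held for 10.8% of all genes tested. The 2 genes were Fzd3 and Sfrp4. Both carry the 8-mer, whose part in these values was not tested. Fzd3 read 14.2, 13.6 and 13.4 CPM with Pkd2+/+ and 10.7, 11.02 and 10.2 CPM with Pkd2 Δ17/Δ17, without overlap and with a log2 fold change of -0.37 (SE 0.12, edgeR adjusted p = 0.771). Sfrp4 read 1.97, 4.79 and 2.34 and 1.58, 2.35 and 1.38 CPM, with overlap and a log2 fold change of -0.77 (SE 0.33, edgeR adjusted p = 0.771). Wnt9b, the third gene with the 8-mer, had 0.21 (SE 0.27, edgeR adjusted p = 0.898). Between the cystic groups the log2 fold changes were -0.10 for Fzd3, -0.43 for Sfrp4 and -0.12 for Wnt9b, none of them called.

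Other genes of the pathway, from lists drawn up by function, were read in the same fits. Of 14 secretion factors and further modulators, 4 were called higher and 5 lower in cystic over noncystic Pkd2+/+ kidneys, where 16.9% of all genes tested were called higher and 14.2% lower. Frzb, a secreted antagonist also known as Sfrp3, rose by 2.001 (SE 0.21, edgeR adjusted p = 2.20e-06) and Tpbg, a membrane inhibitor, by 1.44 (SE 0.23, edgeR adjusted p = 0.000107). Sostdc1, an antagonist of Lrp5 and Lrp6 found in the distal nephron, fell with -1.02 (SE 0.10, edgeR adjusted p = 8.72e-07), and Gpc4, a heparan sulfate proteoglycan, with -0.92 (SE 0.10, edgeR adjusted p = 1.63e-06). With the deletion in cystic kidneys Sostdc1 rose by 0.39 (SE 0.10, edgeR adjusted p = 0.0491), the 1 gene of this list called there.

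Of 18 alternative receptors and planar cell polarity genes, 7 were called higher and 1 lower, where 16.9% and 14.2% of all genes were. Celsr1, an atypical cadherin of the polarity core, had a log2 fold change of 1.14 (SE 0.12, edgeR adjusted p = 1.74e-06), and Scrib, a polarity scaffold, 0.51 (SE 0.07, edgeR adjusted p = 1.72e-05). Daam2, a formin downstream of Dishevelled, was the 1 to fall, with -0.41 (SE 0.09, edgeR adjusted p = 0.00163), and rose with the deletion in cystic kidneys by 0.38 (SE 0.09, edgeR adjusted p = 0.0312). Of 16 genes of cytoplasmic β-catenin control, 6 were called higher and 1 lower, beside the same shares of all genes. Csnk1e, a kinase of Dishevelled, rose by 0.66 (SE 0.07, edgeR adjusted p = 2.64e-06) and Apc2 by 1.06 (SE 0.17, edgeR adjusted p = 0.000112), while Dvl1 fell with -0.29 (SE 0.10, edgeR adjusted p = 0.0317). Btrc, the adaptor that marks β-catenin for degradation, rose with the deletion in cystic kidneys by 0.36 (SE 0.08, edgeR adjusted p = 0.0342).

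Of 9 nuclear cofactors tested (Cdx1, the tenth, had no read), 4 were called higher and 0 lower, where 16.9% and 14.2% of all genes were. Among the 4 were Bcl9, which bridges β-catenin and Pygo, with 0.69 (SE 0.10, edgeR adjusted p = 4.26e-05), and Pygo2 with 0.36 (SE 0.08, edgeR adjusted p = 0.00165). Known β-catenin targets outside the 57 genes numbered 12, of which 8 were called higher and 1 lower, where 16.9% and 14.2% of all genes were. Their median log2 fold change was 0.92, beside 0.02 over all genes tested. Nkd2, a feedback inhibitor that binds Dishevelled, rose by 2.33 (SE 0.20, edgeR adjusted p = 2.25e-07), and Myc by 1.17 (SE 0.13, edgeR adjusted p = 2.89e-06). Sp5, a transcription factor induced directly by Wnt, fell with -1.04 (SE 0.16, edgeR adjusted p = 6.55e-05). Over all 5 lists, the genes called between the cystic groups were Sostdc1, Daam2 and Btrc, and none of the 3 was called without mice 27 and 30. For cystic over noncystic Pkd2+/+ kidneys without these mice, the counts were 3 higher and 5 lower for the modulators, 6 and 1 for the polarity list, 7 and 0 for cytoplasmic control, 4 and 0 for the cofactors and 6 and 1 for the targets. Most of the targets that rose, such as Myc, Cd44, Birc5 and Ccnd1, respond to other pathways too.

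Promoters were scanned for the Tcf/Lef core motif, because the Wnt genes include Tcf/Lef targets. In the RefSeq windows from 250 bases before to 50 after the gene start (GRCm38.p6), CTTTGAT or its reverse complement ATCAAAG was present in 1 of the 38 windows matched to the Wnt genes (2.63%) and in 1225 of 32851 windows (3.73%). The 1 window was that of Wnt5b, with the motif, in capitals, starting at position -71 from the RefSeq start of that window, on the strand of the gene. In GENCODE M21 Wnt5b spans 119432531 to 119544347 of chromosome 6 on the reverse strand, so the motif lies inside the gene there.
Wnt5b, chr6:119449451-119449457, reverse strand: agtaagtctctCTTTGATctgctccctgt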

How the data were processed

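Whole kidney RNA-seq of 12 mice was used. The authors trimmed reads with Trim Galore 0.6.3 and aligned them to GRCm38 with STAR 2.5.3a, and deposited raw counts per gene without normalization. The strand setting of the counting is not given in the sources used here, so genes with overlapping exons are named as such. Beside those named in the results, these are Ctnnb1 (Mir7090 and Ulk4), Fzd5 (Gm38058), Wnt5a (Gm2670) and Wnt11 (Gm8398). Of the rows, 343 had no gene name (0.0225% of counts) and were kept, subject to the same filter on low counts as the others. Columns were matched to mice by the sample labels.

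Differential expression was tested with edgeR 4.0.16 (R 4.3.3). The filter of the study was kept, an average log2CPM of -3 or more. edgeR's quasi-likelihood fit took TMM factors, a mean for each of the 4 groups and the spread of all 12 mice, which left 8 residual degrees of freedom. P-values were adjusted by Benjamini-Hochberg over the 24642 genes tested. The test was tried on simulated counts with known changes. limma-trend 3.58.1 and DESeq2 1.42.0 served as alternatives, with other scalings, filters, Xist as a covariate, only the compared groups, and each mouse left out. The labels do not say how the mice of a group relate to each other (litter or sex). The p-values set each difference against a spread between mice that was pooled over the 4 groups and moderated across genes. Between mice of one group counts differed by more than sampling noise in every pair.

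The 57 genes, the lists and the tests were chosen with earlier results of these data known. Of the 57 genes, those called in a contrast of the deletion are given in every mouse. Values by mouse in some or all of the groups are given for 6 feedback genes and Ctnnb1. The same holds for up to 3 rising and 3 falling genes per role with the smallest adjusted p. It also holds for genes with an unadjusted p under 0.05 and no overlap between the cystic groups. Other genes given by mouse were chosen after their values were seen. Coordinates, exon lengths and 3′-UTRs are from GENCODE M21, in which 54495 identifiers and all 57 genes were found.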

Additional observations from a re-analysis of the deposited data

How the results depend on the processing

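Of the 27 genes called between cystic and noncystic Pkd2+/+ kidneys, 22 to 25 were called with each mouse left out in turn, and for Pkd2 Δ17/Δ17 mice, with 20 called, it was 17 to 21. The deletion in cystic kidneys depended on the setting more: instead of 5 genes, DESeq2 called 9 (7.05% of all genes called), edgeR without a filter on low counts 11 (4.94%), edgeR with Xist as a covariate 3 (2.31%), edgeR on the compared groups only 1 (0.678%), edgeR without mice 27 and 30 together 2 (1.33%), and edgeR with each cystic mouse left out in turn 0 to 7 (0.479 to 3.47%), beside 2.23% with all mice. None of the 5 was called in every setting. For the interaction, with 0 called, DESeq2 called 1 (0.813% of all genes) and edgeR without the filter 4 (Sfrp2, Wnt11, Wnt5a and Wnt5b; 1.71%), and leaving out single mice gave 0 to 0, as it did for the deletion in noncystic kidneys. The cause of these differences was not tested. Signs turned for small log2 fold changes. When single mice were left out, the log2 fold change between the cystic groups ran from -0.22 to 0.051 for Fzd2, -0.071 to 0.044 for Fzd6, -0.041 to 0.35 for Rspo3, -0.17 to 0.14 for Tcf7 and -0.11 to 0.67 for Wnt8b. That between cystic and noncystic kidneys ran from -0.36 to 0.10 for Lef1 in Pkd2+/+ mice and from -0.11 to 0.21 in Pkd2 Δ17/Δ17 mice, where it was also -0.11 without mice 27 and 30. Rspo3 turned to -0.011 between the cystic groups with Xist as a covariate. Tcf7, at -0.0037, turned there to 0.014 with limma-trend, 0.0049 with library totals, 0.00029 with filterByExpr and 0.00498 with Xist as a covariate. With limma-trend and with library totals, cystic over noncystic kidneys turned for Fzd7 in Pkd2 Δ17/Δ17 mice (0.017 and 0.027), for Znrf3 in Pkd2+/+ mice (0.0930 and 0.0925) and for Znrf3 in Pkd2 Δ17/Δ17 mice (0.095 and 0.094). Of the other values for named genes under alternative settings, 1082 kept direction and side of the threshold, 33 passed it newly and 74 no longer passed it. No paired analysis was possible because the mouse numbers are unique and no number is shared between groups. Genes with few reads, such as Wnt8b, Dkkl1 and Lgr5, are limited by depth.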
